A study of Mus musculus with 7 samples.

Results

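Hnf4a, Ppara, Ppargc1a, Esrra, Esrrg, Nr1h4, Pax8 and Maf encode 5 nuclear receptors of kidney tubule metabolism and Pgc-1alpha, a coactivator that works with them, together with 2 other transcription factors of the tubule epithelium. The 8 genes were taken by symbol from the 53465 genes of the deposited count table, and all 8 passed the filter on low counts that left 15774 genes for testing. Counts came from kidney tissue of 7 MRL/lpr mice, of which 4 received AZD1152 and 3 received vehicle, with 1 library per mouse. MRL/lpr mice carry the lpr mutation of the death receptor gene Fas and develop a lupus-like disease with nephritis, so both groups share that background. AZD1152, also called barasertib, is a prodrug of an inhibitor of Aurora kinase B, which acts in chromosome segregation and cytokinesis. The sources used here do not give the dose, the schedule, the vehicle's composition or the age and sex of the mice.

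Nuclear receptors bind DNA through zinc fingers, and many of them switch between corepressor and coactivator complexes when a lipid or steroid ligand binds. In the proximal tubule, which reabsorbs most of the filtrate and depends on fatty acid oxidation for its energy, Hnf4a acts on genes of transport and gluconeogenesis. Ppara drives fatty acid oxidation, the estrogen-related receptors Esrra and Esrrg act with Pgc-1alpha on mitochondrial genes, and Nr1h4 encodes the bile acid receptor FXR.

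Library totals ranged from 14692113 to 17036862 counts, and no 2 libraries agreed within sampling noise. Mitochondrially encoded genes took 8.03% to 9.0% of the counts in the vehicle libraries and 9.41% to 11.6% in the AZD1152 libraries. The edgeR quasi-likelihood test with Benjamini-Hochberg adjustment over all genes called 476 genes higher with AZD1152, 3.02% of those tested, and 759 lower, 4.81%. Scaling by total counts gave 232 higher and 1482 lower and moved the median over all genes from -0.00 to -0.15 on the log2 scale, and scaling to 30 proximal tubule markers gave 45 and 8429 and moved it to -0.53. Proximal tubule markers were present in every library, with 10 of the 30 higher, none lower and a median log2 fold change of 0.54 (0.01 when scaled to themselves). Other segments had calls too, with 2 of 5 distal convoluted tubule markers higher (median 0.65) and 4 of 9 collecting duct markers higher (0.34). Of the loop of Henle markers 1 of 8 was lower (-0.23), and 2 of 6 fibroblast markers were lower (-0.68). Without single libraries the calls ranged from 0 to 3 for the distal convoluted tubule and 0 to 4 for the collecting duct. They ranged from 0 to 2 for the loop of Henle and for fibroblasts. Macrophage markers were lower for 9 of 12 genes, T cell markers for 6 of 10 and tubular injury genes for 7 of 8, and no gene of these 3 lists was higher. Without single libraries these counts ranged from 2 (without vehicle mouse 1 or AZD1152 mouse 4) to 9 for the proximal tubule, from 2 (without vehicle mouse 3) to 10 for macrophages, from 1 (without vehicle mouse 3) to 7 for T cells and from 2 (without AZD1152 mouse 4) to 6 for tubular injury. The summed proximal tubule signal was 26862 to 32483 CPM (counts scaled to library size) with vehicle and 38736 to 47418 CPM with AZD1152, and the summed macrophage signal was 963 to 1313 CPM and 443 to 684 CPM. In bulk tissue, fewer cells of a type and less RNA per cell cannot be told apart, and the part of these shifts in the values below was not tested except where a value is given.

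Hnf4a rose with AZD1152, 1.34-fold, and was the only gene of the 8 to pass the test. Of the 8 genes, 7 had a positive log2 fold change and 1, Pax8, a negative one. The median of the 8 was 0.36, beside a median of -0.00 over all genes tested, of which 49.9% had a positive estimate. All 8 were negative when scaled to the proximal tubule markers, with a median of -0.16. That scaling put the median over all genes lower still, at -0.53. The count of 1 called of 8 stands beside 3.02% of all genes called higher and rests on a single gene. The AZD1152 libraries all lay above the vehicle libraries for 3 genes, Hnf4a, Esrra and Nr1h4, which was also the case for 11.2% of all genes tested. Vehicle mouse 3 held the lowest value for 6 of the 8, and AZD1152 mouse 2 the highest for 4. Over all genes tested, vehicle mouse 3 was lowest for 22.8% and AZD1152 mouse 2 highest for 21.6%.

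**Figure D1:**
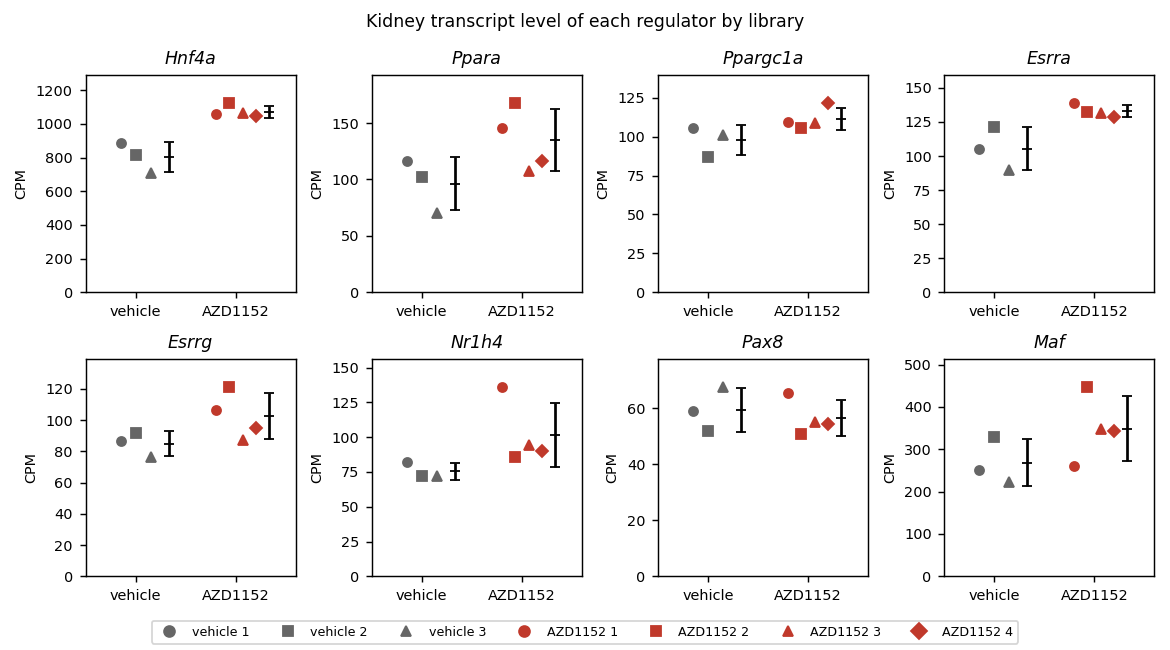
CPM on the y axis in each library for the 8 genes, with vehicle and AZD1152 libraries on the x axis of each panel; points are libraries (1 mouse each) and black bars the group mean ± SD. The groups do not overlap for Hnf4a, Esrra and Nr1h4, and overlap for the other 5 genes.

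Per kilobase of exon, the 8 genes stood in the same order of mean level in both groups. Hnf4a was highest, at 166 ± 18.7 CPM per kb (SD, n = 3) with vehicle and 222 ± 7.35 (SD, n = 4) with AZD1152. Nr1h4, Maf, Ppara and Esrra followed, with vehicle means of 32.8, 32.5, 25.1 and 24.0 CPM per kb, and each neighbouring pair among them overlapped in range in both groups. Ppargc1a at 14.9 and Esrrg at 13.7 CPM per kb also overlapped in both groups. Pax8 was lowest, at 9.83 ± 1.30 CPM per kb with vehicle and 9.33 ± 1.05 with AZD1152. The steps from Hnf4a to Nr1h4, from Esrra to Ppargc1a and from Esrrg to Pax8 were larger than the spread in both groups.

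Hnf4a (ENSMUSG00000017950, GRCm38 chr2:163506808-163572910, plus strand) encodes a receptor that keeps differentiated epithelial programmes in liver, gut and proximal tubule. Its level was 886, 813 and 707 CPM in vehicle mice 1 to 3 and 1057, 1124, 1064 and 1045 CPM in AZD1152 mice 1 to 4. The lowest AZD1152 library lay above the highest vehicle library, and the vehicle mice spread more widely than the treated ones. The mean rose from 802 ± 90.1 (SD, n = 3) to 1073 ± 35.5 CPM (SD, n = 4), which gave a log2 fold change of 0.42 ± 0.0989 (SE) with a 95% interval of 0.19 to 0.64 and an edgeR adjusted p of 0.0387. With total counts as the scaling it was 0.27 (adjusted p = 0.0541 by edgeR). Without any 1 of the 7 libraries the edgeR adjusted p exceeded 0.05, ranging from 0.0592 without vehicle mouse 1 to 0.101 without vehicle mouse 3, with log2 fold changes of 0.34 to 0.50.

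**Figure D2:**
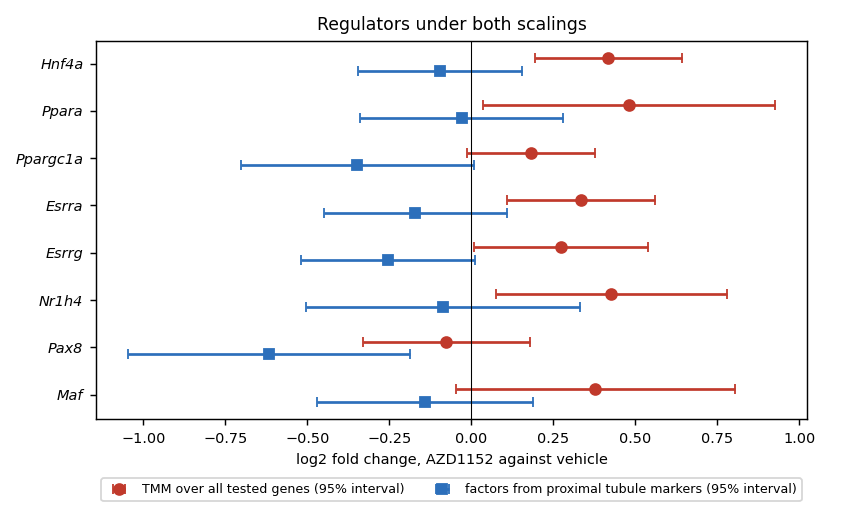
Log2 fold change of AZD1152 over vehicle for the 8 genes on the x axis with 95% intervals, for counts scaled over all genes and for counts scaled to the proximal tubule markers. With the first scaling the Hnf4a interval runs from 0.19 to 0.64. With the second, all 8 estimates lie below 0, as does the median over all genes (-0.53).

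Hnf4a has a downstream and an upstream start site, and promoters of Hnf4a, Nr1h4 and 2 genes of a list of HNF dependent genes are shown because they hold the same homeodomain-type motif. Promoter windows came from RefSeq on GRCm38.p6, from 250 bases before to 50 after each start, and held an entry for 7 of the 8 genes, not for Maf. The letters GTTAAT, read on both strands (ATTAAC on the other), occurred in 2332 of 32851 promoters, 7.10%, and in at least 1 promoter of 2228 of 27025 genes, 8.24%. They occurred for 3 of the 7 genes, Hnf4a, Nr1h4 and Esrrg, and for 7 of 18 genes with an entry in the list of 22 genes dependent on hepatocyte nuclear factors (HNF). A gene was counted if any of its windows matched. Genes with several starts, such as Hnf4a and Esrrg, thus had more sequence searched than genes with 1, and the share over all genes is not matched for that. The 250 bases before the start are printed 5′ to 3′ on the gene's strand with the matching letters in capitals, for Hnf4a at the downstream start (chr2:163546905-163547154, plus), Nr1h4 (chr10:89506659-89506908, minus), Slc34a1 (chr13:55399398-55399647, plus) and Miox (chr15:89334223-89334472, plus).
Hnf4a: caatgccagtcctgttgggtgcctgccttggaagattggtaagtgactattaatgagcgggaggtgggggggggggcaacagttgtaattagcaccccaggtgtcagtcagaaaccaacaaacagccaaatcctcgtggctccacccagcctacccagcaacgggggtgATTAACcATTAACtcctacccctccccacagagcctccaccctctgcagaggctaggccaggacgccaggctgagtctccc
Nr1h4: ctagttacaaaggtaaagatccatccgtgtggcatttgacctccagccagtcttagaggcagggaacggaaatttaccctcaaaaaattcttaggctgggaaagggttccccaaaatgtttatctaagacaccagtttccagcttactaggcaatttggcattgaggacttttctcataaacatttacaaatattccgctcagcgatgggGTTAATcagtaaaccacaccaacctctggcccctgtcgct
Slc34a1: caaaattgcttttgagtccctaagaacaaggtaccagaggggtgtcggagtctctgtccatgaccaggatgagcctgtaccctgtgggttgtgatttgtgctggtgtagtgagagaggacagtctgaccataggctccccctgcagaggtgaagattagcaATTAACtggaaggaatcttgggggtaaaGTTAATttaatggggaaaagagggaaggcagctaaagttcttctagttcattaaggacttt
Miox: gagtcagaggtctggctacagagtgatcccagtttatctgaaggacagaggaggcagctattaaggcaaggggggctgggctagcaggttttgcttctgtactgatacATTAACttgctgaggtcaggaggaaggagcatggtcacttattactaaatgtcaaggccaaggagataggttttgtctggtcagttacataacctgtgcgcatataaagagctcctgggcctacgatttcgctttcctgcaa
The Hnf4a window held a tandem pair of matches that began 81 and 74 bases before the start, and Nr1h4 a single match 40 bases before it. Slc34a1 held 2 matches at 89 and 61 bases, and Miox 1 match at 142 bases. At the upstream Hnf4a start the same 250 bases held none, and the Esrrg match lay in the 50 bases past a start. The motif searched for HNF4 itself, CAAAGTCCA on either strand, occurred for 0.555% of all genes with an entry. None of the 7 genes or the 18 HNF list genes with an entry held it. A match describes letters and is no measured site, and the absence of these letters says nothing of a factor's binding elsewhere.

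Of the 22 HNF dependent genes, all tested, 7 rose and none fell. All 22 had a positive log2 fold change, with a median of 0.47, which was -0.03 when scaled to the proximal tubule markers. The list shares 10 genes with the proximal tubule markers, among them 4 of the 7 that rose, so it is not separate from them. Hpd, an enzyme of tyrosine breakdown, stood at 124, 104 and 71.0 CPM with vehicle and 377, 413, 206 and 260 CPM with AZD1152. All AZD1152 libraries were above all vehicle libraries, and the log2 fold change was 1.66 ± 0.27 (SE), the highest among the 7, with an edgeR adjusted p of 0.0138.

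Fbp1, a gluconeogenic enzyme, rose by a log2 fold change of 0.70 ± 0.126 (adjusted p = 0.0179 by edgeR). Slc5a2, the glucose transporter of the early proximal tubule, rose by 0.75 ± 0.142 (adjusted p = 0.0207 by edgeR), although 20.6% of its exons overlap BC017158 on the other strand. Slc34a1, whose promoter is printed above, is the phosphate transporter of the brush border, and went from 3206, 3685 and 2421 CPM to 4591, 5379, 5004 and 4848 CPM, without overlap. Its log2 fold change was 0.67 ± 0.151 (adjusted p = 0.033 by edgeR). Miox, an inositol oxygenase of the tubule, and Slc17a1, a phosphate transporter, also rose, with log2 fold changes of 0.69 and 0.43 and edgeR adjusted p-values of 0.0403 and 0.0426. The call of Fbp1 held without each single library, that of Hpd was lost without vehicle mouse 3, that of Slc5a2 also without vehicle mouse 1 or AZD1152 mouse 4, and that of Slc34a1 without any library other than vehicle mouse 2 or AZD1152 mouse 1. The number of genes called in this list was 1 without vehicle mouse 3, 2 without vehicle mouse 1 or AZD1152 mouse 4, 3 without AZD1152 mouse 2 or 3, 4 without AZD1152 mouse 1 and 5 without vehicle mouse 2.

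Among 20 other transcription factors of the tubule, none was called higher and 1, Irx2, lower, and their median was 0.02. It was negative, down to -0.12, without vehicle mouse 1, 2 or AZD1152 mouse 1 or 4, and -0.14 with total counts. Irx2, an Iroquois homeobox factor of nephron segmentation, fell from 17.1, 14.5 and 21.7 CPM to 13.5, 7.83, 8.68 and 10.4 CPM, without overlap. Its log2 fold change was -0.81 ± 0.205 (adjusted p = 0.0458 by edgeR), and the call was lost without vehicle mouse 1 or 3 or AZD1152 mouse 2, 3 or 4. Sox9, which marks injured and regenerating tubule cells, had a log2 fold change of -0.87 (adjusted p = 0.0546 by edgeR), Klf15 one of 0.54 (0.0661) and Lhx1 one of 0.38 (0.0763). DESeq2 called 3 of the 20 higher and 2 lower, beside 954 and 1138 of 15533 genes.

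The 2 genes with library profiles most like that of Hnf4a, by root mean square difference of centred log2 CPM over the 7 libraries, were Cldn12 (0.0342), a claudin, and Dnajc13 (0.0357), an endosomal chaperone cofactor. Both were picked for that likeness, so fold changes close to that of Hnf4a follow from the choice and are no separate result. Cldn12 had a log2 fold change of 0.43 and Dnajc13 one of 0.42, with edgeR adjusted p-values of 0.0242 and 0.0476. Both calls were lost without vehicle mouse 3 (0.082 and 0.113), and that of Dnajc13 without each of the other 6 libraries too.

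Ppara (ENSMUSG00000022383, chr15:85734983-85802819, plus strand) encodes the receptor that fatty acids and fibrates activate. It stood at 117, 102 and 70.1 CPM with vehicle and 146, 168, 108 and 117 CPM with AZD1152. AZD1152 mouse 3 lay within the vehicle range, AZD1152 mouse 4 was level with vehicle mouse 1, and vehicle mouse 3 was the lowest library. The mean was 96.4 ± 23.8 CPM (SD, n = 3) with vehicle and 135 ± 27.5 (SD, n = 4) with AZD1152. The log2 fold change of 0.48 ± 0.197, with a 95% interval of 0.04 to 0.93, did not pass the edgeR test (adjusted p = 0.169), and it was 0.30 without vehicle mouse 3. It was the largest of the 8 with all libraries, and lay below that of Hnf4a (0.34) without that mouse.

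A list of 30 PPARA targets, mostly enzymes of fatty acid oxidation, had 29 genes tested. Of these, 3 rose and none fell, and all 29 had a positive log2 fold change with a median of 0.39, which was -0.14 when scaled to the proximal tubule markers. The AZD1152 libraries all lay above the vehicle libraries for 12 of the 29, against 11.2% of all genes tested. Acaa2, the last enzyme of the mitochondrial oxidation spiral, went from 172, 173 and 148 CPM to 270, 311, 251 and 265 CPM. Its libraries did not overlap, and its log2 fold change was 0.73 ± 0.0987 (adjusted p = 0.00951 by edgeR), a call that held without each single library. Acadvl, the very-long-chain acyl-CoA dehydrogenase, rose by 0.37 ± 0.069 (adjusted p = 0.0206 by edgeR), with 42.9% of its exons overlapping Dvl2. Hadhb, a subunit of the trifunctional protein, rose by 0.39 ± 0.0785 (adjusted p = 0.0242 by edgeR). Both lost the call without vehicle mouse 1, vehicle mouse 3 or AZD1152 mouse 4, which left Acaa2 as 1 of 29. Cpt1a, which admits long-chain fatty acids to mitochondria, had a log2 fold change of 0.42 (adjusted p = 0.0696 by edgeR).

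Most PPARA targets did not peak in the same library as Ppara itself. AZD1152 mouse 1 was the highest library for 26 of the 29 targets, against 15.4% of all genes tested, and vehicle mouse 2 the lowest for 21, against 9.79%. Ppara was highest in AZD1152 mouse 2 and lowest in vehicle mouse 3. AZD1152 mouse 2 was the highest library for 2 of the 29 targets. Among them was Acaa2, which was also lowest in vehicle mouse 3, as Ppara was. Pdk4, the kinase that restrains pyruvate oxidation in fasting, is an example of a target highest in AZD1152 mouse 1. It stood at 68.2, 37.2 and 72.8 CPM with vehicle and 224, 37.4, 47.8 and 83.2 CPM with AZD1152. Pdk4 was singled out after its values were seen, and its groups overlapped. AZD1152 mouse 1 stood far above every other library for Pdk4, and of the other treated mice only mouse 4 exceeded the highest vehicle library.

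Without AZD1152 mouse 1, the median log2 fold change of the 29 targets was 0.25, and the log2 fold change of Pdk4 was -0.09 in place of 0.73. The log2 value averaged over the list was 7.16, 6.87 and 7.26 in vehicle mice 1 to 3 and 7.97, 7.31, 7.33 and 7.46 in AZD1152 mice 1 to 4. Every treated mouse lay above every vehicle mouse on that measure, mouse 1 by the widest margin.

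**Figure D3:**
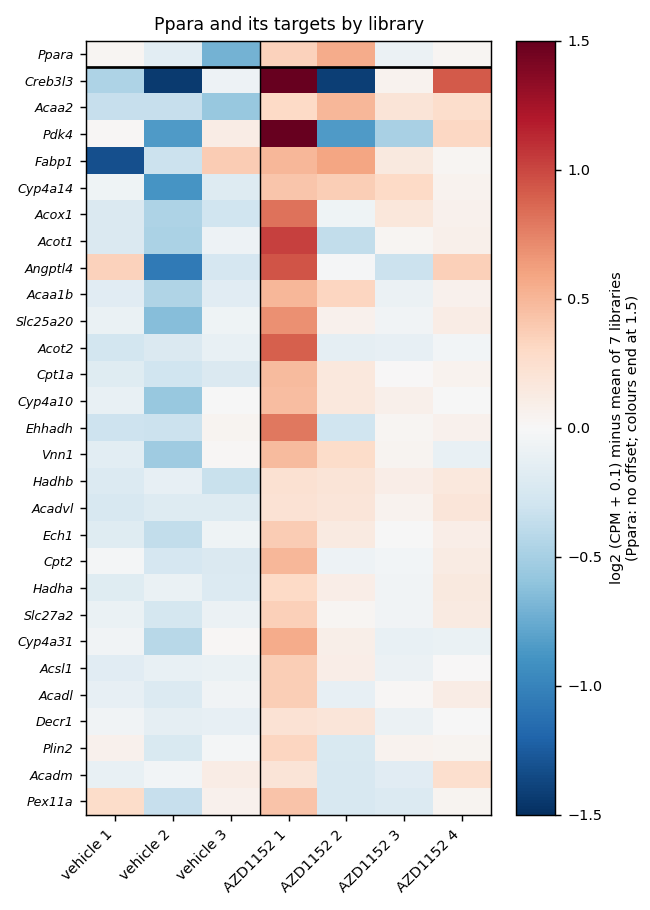
Heatmap of log2 CPM relative to the mean of the 7 libraries, with Ppara (top row) and 28 of its 29 tested targets as rows and libraries as columns; red is above and blue below the mean, and colours end at 1.5. AZD1152 mouse 1 is highest for 26 of the 29 targets, and Ppara is highest in AZD1152 mouse 2.

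A direct repeat of AGGTCA with 1 base between, the site type that PPAR and RXR bind, was searched on both strands. It occurred for 0.0481% of all genes with a promoter entry. None of the 7 regulators or the 21 PPARA targets with an entry held it, and at that share a match in so few genes would be unlikely. Rxra, the partner with which Ppara and Nr1h4 bind DNA, stood at 173, 181 and 145 CPM with vehicle and 215, 189, 203 and 190 CPM with AZD1152, without overlap. Its log2 fold change was 0.26 ± 0.0938 (adjusted p = 0.125 by edgeR), and it was singled out after its values were seen. Of 29 further nuclear receptors and Pgc-1alpha relatives, 27 were tested and none was called in either direction. Their median was 0.07 (-0.07 with total counts), and DESeq2 called 1. Among those with the smallest p-values were the circadian receptors Nr1d2 (log2 fold change 0.41) and Rora (0.37) and the coactivator Pprc1 (-0.37), with edgeR adjusted p-values of 0.101, 0.116 and 0.11.

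Of 13 coregulators, none was called in either direction by edgeR or DESeq2, and the median was 0.06 (-0.09 with total counts). Lpin1, a lipin that works with Pgc-1alpha, had a log2 fold change of 0.46 (adjusted p = 0.143 by edgeR) and Perm1, a muscle-type Pgc-1alpha and ERR regulator, one of 0.35 (0.236). The corepressor Ncor1 had a log2 fold change of 0.18 and Nrip1 one of 0.10.

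Esrra (ENSMUSG00000024955, chr19:6910977-6921813, minus strand) encodes the estrogen-related receptor alpha, an orphan receptor that activates genes of oxidative phosphorylation. Its level was 105, 121 and 89.6 CPM with vehicle and 139, 132, 131 and 129 CPM with AZD1152. All treated mice lay above all vehicle mice and were close to each other. The mean went from 105 ± 15.8 CPM (SD, n = 3) to 133 ± 4.42 (SD, n = 4), and the log2 fold change of 0.34 ± 0.0997 had a 95% interval of 0.11 to 0.56. It did not pass the edgeR test (adjusted p = 0.0745) but did without vehicle mouse 2 (0.0319) and in DESeq2 (adjusted p = 0.0306), which called 6.14% of 15533 genes higher. Trmt112, on the other strand, overlaps 1.7% of its exons.

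Esrrg (ENSMUSG00000026610, chr1:187608791-188214885, plus strand) encodes another receptor of that subfamily, abundant in tissues rich in mitochondria. It stood at 86.3, 91.9 and 76.4 CPM with vehicle and 107, 121, 87.3 and 95.2 CPM with AZD1152. AZD1152 mouse 3 lay within the vehicle range, and the other 3 treated mice above it. The log2 fold change was 0.27 ± 0.117, with a 95% interval of 0.01 to 0.54 and an edgeR adjusted p of 0.189, and it was 0.17 without AZD1152 mouse 2.

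Ppargc1a (ENSMUSG00000029167, chr5:51454250-51567726, minus strand) encodes Pgc-1alpha, the coactivator of mitochondrial biogenesis. It stood at 106, 87.3 and 101 CPM with vehicle and 109, 105, 109 and 122 CPM with AZD1152. AZD1152 mouse 2 was just below vehicle mouse 1, so the groups overlapped. The log2 fold change was 0.18 ± 0.0865, with a 95% interval of -0.01 to 0.38 (adjusted p = 0.233 by edgeR), an interval that holds both 0 and a rise of the size estimated for Esrra. It was 0.11 without vehicle mouse 2.

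A list of 25 ERR and Pgc-1alpha targets, mostly genes of the citric acid cycle and the respiratory chain, had 2 genes that rose and none that fell. Of the 25, 24 had a positive log2 fold change, with a median of 0.31 (-0.21 when scaled to the proximal tubule markers). For 16 of the 25 the AZD1152 libraries all lay above the vehicle libraries, against 11.2% of all genes tested. Sod2, the mitochondrial superoxide dismutase, went from 300, 316 and 244 CPM to 380, 378, 373 and 386 CPM, a log2 fold change of 0.40 ± 0.0978 (adjusted p = 0.041 by edgeR). Cox6a1, a subunit of cytochrome c oxidase, went from 396, 436 and 381 CPM to 491, 512, 491 and 516 CPM, a log2 fold change of 0.31 ± 0.0803 (adjusted p = 0.0479 by edgeR). The treated mice were close to each other and above the vehicle mice for both genes.

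Got2 and Idh3a, mitochondrial enzymes of the malate-aspartate shuttle and the citric acid cycle, had log2 fold changes of 0.36 and 0.28 and edgeR adjusted p-values of 0.0562 and 0.0576. The number of genes called in the list was 6 without vehicle mouse 2, 1 without AZD1152 mouse 2 and 0 without any other single library or with total counts, where the median was 0.16, and DESeq2 called 14. AAGGTCA on either strand, the core of the ERR motif, occurred for 5.38% of all genes with a promoter entry. It occurred for none of the 7 regulators with an entry and for 2 of 21 genes of the list.

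Nr1h4 (ENSMUSG00000047638, chr10:89454234-89533585, minus strand), the receptor that bile acids activate, stood at 82.4, 72.3 and 71.8 CPM with vehicle and 136, 85.9, 94.2 and 90.0 CPM with AZD1152. The groups did not overlap, and AZD1152 mouse 1 stood well above the other treated mice. The mean went from 75.5 ± 6.0 CPM (SD, n = 3) to 102 ± 23.3 (SD, n = 4), which gave a log2 fold change of 0.43 ± 0.156 with a 95% interval of 0.08 to 0.78 (adjusted p = 0.129 by edgeR). Without AZD1152 mouse 1 it was 0.25 (adjusted p = 0.106 by edgeR).

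Of 12 FXR responsive genes, 9 were tested, and none was called higher or lower by edgeR. Their median log2 fold change was 0.26, which was 0.16 without AZD1152 mouse 2, 0.12 with total counts and -0.23 when scaled to the proximal tubule markers. Of the 9, 7 were positive and DESeq2 called 1. Fgf15 and Cyp7a1, an ileal hormone and a hepatic enzyme, had 0 counts in all 7 libraries, where the limit of 3 counts is 0.166 to 0.212 CPM. Osgin1, an oxidative stress response gene, went from 35.8 to 44.9 CPM with vehicle to 47.6 to 67.5 CPM with AZD1152 (log2 fold change 0.47, edgeR adjusted p = 0.0694). Fgfr4 had a log2 fold change of 0.24 (adjusted p = 0.088 by edgeR), and Abcb4, a phospholipid transporter at only 0.67 to 2.55 CPM, one of 0.94 (adjusted p = 0.0987 by edgeR). In Osgin1, Fgfr4 and Abcb4 the groups did not overlap. An inverted repeat of AGGTCA with 1 base between, the site type that FXR and RXR bind, occurred for 0.0111% of all genes with a promoter entry. None of the 7 regulators or the 10 FXR responsive genes with an entry held it, and at that share a match in so few genes would be unlikely.

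Pax8 (ENSMUSG00000026976, chr2:24420560-24475599, minus strand) encodes a paired-box factor that specifies the nephron lineage and stays on in adult tubule epithelium of many segments. Its level was 59.0, 52.0 and 67.7 CPM with vehicle and 65.7, 50.8, 55.3 and 54.3 CPM with AZD1152. The groups overlapped over most of their range. The log2 fold change was -0.08 ± 0.113, with a 95% interval of -0.33 to 0.18 (adjusted p = 0.732 by edgeR). Without vehicle mouse 3, its highest library, the log2 fold change was 0.03. Gm13415, on the other strand, overlaps 6.1% of its exons.

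Maf (ENSMUSG00000055435, chr8:115682942-115707794, minus strand) encodes a basic leucine zipper factor of the proximal tubule that macrophages and T cells also express. It stood at 251, 330 and 223 CPM with vehicle and 259, 447, 347 and 342 CPM with AZD1152. AZD1152 mouse 1 lay within the vehicle range and the other 3 treated mice above it. The log2 fold change was 0.38 ± 0.189, with a 95% interval of -0.05 to 0.81 (adjusted p = 0.254 by edgeR), and it was 0.23 without AZD1152 mouse 2. The macrophage and T cell markers had median log2 fold changes of -1.02 and -1.39, and their part in the Maf value was not tested.

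**Figure D4:**
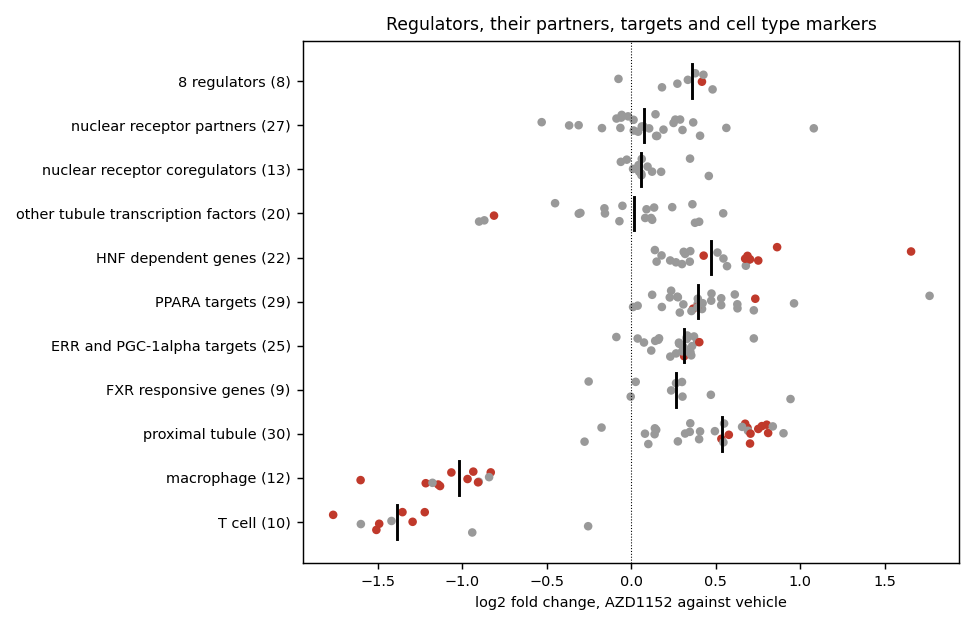
Log2 fold change of AZD1152 over vehicle on the x axis for each tested gene (points, red where it passed the edgeR test) of the 8 regulators and of their partner, target and marker lists on the y axis, with a black bar at the list median. The medians of the HNF, PPARA and ERR lists are 0.47, 0.39 and 0.31 (-0.03, -0.14 and -0.21 when scaled to the proximal tubule markers), and those of the macrophage and T cell lists are -1.02 and -1.39.

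Of the 8 genes, Hnf4a, Ppara, Esrra, Nr1h4 and Maf had the estimates nearest to that of the proximal tubule markers. Their standard errors, up to 0.208, leave room for a difference in either direction. Against the mean log2 level of those 30 markers in the same library, the difference between AZD1152 and vehicle was -0.03 ± 0.0767 (SE) for Hnf4a, 0.03 ± 0.152 for Ppara, -0.11 ± 0.0912 for Esrra, -0.05 ± 0.208 for Nr1h4 and -0.09 ± 0.173 for Maf. For these 5 genes the groups overlapped. The difference was -0.27 ± 0.186 for Ppargc1a and -0.53 ± 0.248 for Pax8, also with overlap. For Esrrg it was -0.19 ± 0.0596, and all treated mice lay below all vehicle mice. The share of all genes that separate in that direction on this measure was not counted. Under scaling to the same markers, the log2 fold change of Esrrg was -0.25 and the median over all genes -0.53.

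With libraries scaled to the proximal tubule markers, none of the 8 genes was higher and Pax8 was lower, with a log2 fold change of -0.62 ± 0.199 (adjusted p = 0.025 by edgeR). The 8429 genes called lower with that scaling were 53.4% of those tested, and 1 of 8 lies under that background. The Hnf4a log2 fold change was -0.10, with a 95% interval of -0.35 to 0.15, and the Ppara one was -0.03, both above the median of -0.53 over all genes.

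**Figure D5:**
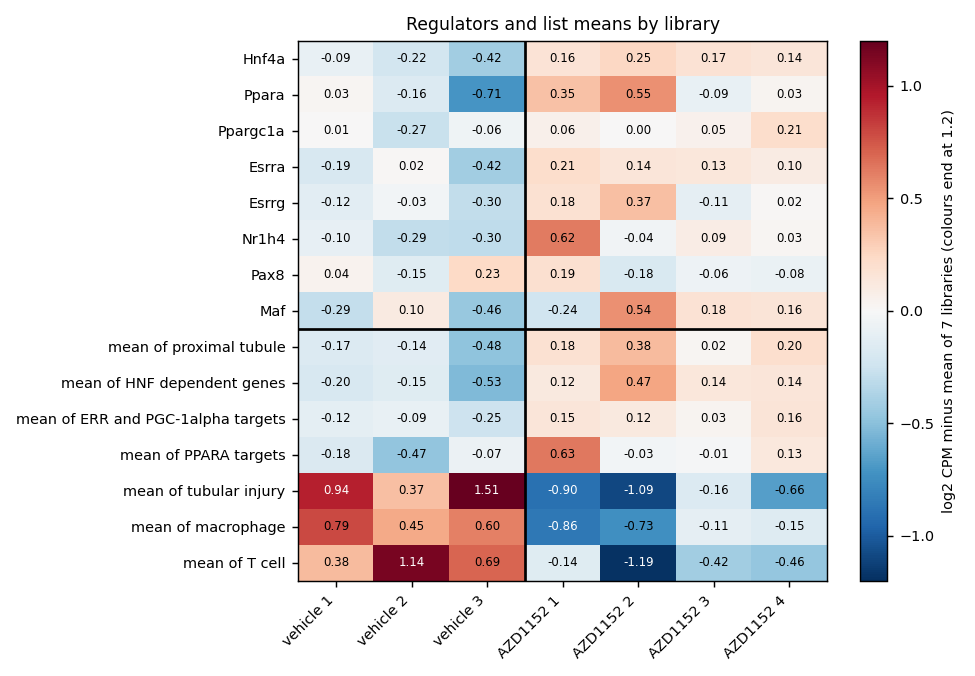
Heatmap of log2 CPM relative to the mean of the 7 libraries, with libraries as columns and, as rows, the 8 genes and the mean of 7 gene lists; colours end at 1.2 and each cell carries its value. Vehicle mouse 3 is lowest for 6 of the 8 genes and for the proximal tubule list, and AZD1152 mouse 1 is highest for the PPARA targets.

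The libraries most often extreme for the regulators were also most often extreme for the HNF, ERR and proximal tubule lists, and not for the PPARA targets. AZD1152 mouse 2 was highest for 16 of 22 HNF list genes, 15 of 25 ERR list genes and 18 of 30 proximal tubule markers. Vehicle mouse 3 was lowest for 17, 19 and 20 genes of the same lists. Over all genes tested, AZD1152 mouse 2 was highest for 21.6% and lowest for 21.8%. Vehicle mouse 3 was lowest for 22.8% of them and highest for 19.5%, so both libraries were often extreme in either direction. The mean log2 level of the proximal tubule markers was 9.09, 9.12 and 8.78 in vehicle mice 1 to 3 and 9.44, 9.63, 9.28 and 9.46 in AZD1152 mice 1 to 4. Vehicle mouse 3 also held the highest summed signal of the tubular injury genes, 4450 CPM, against 3162 to 3921 CPM in the other vehicle mice and 1576 to 2609 CPM in the treated mice. Vcam1, an adhesion molecule that injured proximal tubule cells display, fell from 155, 125 and 158 CPM to 40.7, 36.6, 66.1 and 44.3 CPM, a log2 fold change of -1.64 ± 0.187 (adjusted p = 0.009 by edgeR), and the groups did not overlap.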

How the data were processed

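Kidney messenger RNA of 7 MRL/lpr mice was sequenced after oligo(dT) enrichment with a TruSeq RNA kit, per the labels' protocols. The authors deposited raw read counts per gene, without normalization. The submitters' processing notes name CASAVA, HISAT2 2.0.5, DESeq2, DESeq and the build GRCm38. How reads were assigned to genes, whether by strand, and with which annotation is not given in the sources used here. Overlapping genes on opposite strands may share reads.

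Groups and replicate numbers came from the sample titles, and the design text describes separate mice. Of 53465 genes, 53274 had a name in GENCODE M21, and all 258 list entries (241 genes) matched. From the deposited counts, CPM and log2 CPM (prior count 2) were computed with trimmed-mean (TMM) factors. The edgeR 4.0.16 quasi-likelihood test (R 4.3.3, all 7 libraries, no covariate) ran on 15774 genes left by its low-count filter, with Benjamini-Hochberg adjustment and a threshold of 0.05, and was tested on simulated data. Counting error is small beside the biological coefficient of variation of 0.168. With 3 and 4 libraries a fold change of modest size can miss the test.

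Named genes were all 8 genes, the 4 with the smallest p of each list, up to 2 of each cell type list set beside a count, and the 2 nearest profiles of each gene that passed. The members and lists were chosen with earlier results of these data known. Alternatives were other scalings, no or a stricter filter, DESeq2 1.42.0, leaving out each library and a replicate block. Sequences came from RefSeq promoter windows on GRCm38.p6. No sequencing batch was given, and none could be examined. A few genes of the lists are counted in them but not reported by name here.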

Additional observations from a re-analysis of the deposited data

Results flagged for a closer look

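In 42 genes examined, a single AZD1152 library stood apart from the other 3 in 2 genes, by a test that flags about 1 group in 20 by chance. Nr1h4 was at 136 CPM in AZD1152 mouse 1, against 85.9, 94.2 and 90.0 CPM in the other treated mice, a gap of 0.835 of the group's range. The same mouse was highest for 26 of 29 PPARA targets. Cd44, an adhesion receptor of leukocytes and injured tubules, was at 16.3 CPM in AZD1152 mouse 3, against 11.5, 11.7 and 11.3 CPM in the other treated mice and 25.5 to 44.0 CPM with vehicle, a gap of 0.902. Its log2 fold change of -1.5 passed the edgeR test with an adjusted p of 0.00951.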

How the results depend on the processing

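Across 15 alternatives and 42 named genes, 505 of 630 values kept their direction and their side of the threshold. The count of genes higher, 476, was 232 with total counts, 45 with proximal tubule factors, 954 with DESeq2 and 60 to 475 without single libraries; the count lower, 759, was 1482, 8429, 1138 and 163 to 619. Among single libraries left out, both counts were lowest without vehicle mouse 3. Of the 8 regulators, those called higher numbered 0 with total counts or proximal tubule factors, 2 (Hnf4a and Esrra) with DESeq2 and 0 to 1 without single libraries, the 1 being Esrra without vehicle mouse 2. Those called lower numbered 1 (Pax8) with proximal tubule factors and 0 without any single library.

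Scaling to the proximal tubule markers, which lowers every gene by construction where those markers are higher, reversed 26 log2 fold changes: Hnf4a -0.10, Ppara -0.028, Ppargc1a -0.35, Esrra -0.17, Esrrg -0.25, Nr1h4 -0.087, Maf -0.14, Nr1d2 -0.11, Rora -0.15, Lpin1 -0.068, Perm1 -0.17, Ncor1 -0.33, Nrip1 -0.43, Lhx1 -0.13, Acadvl -0.17, Hadhb -0.13, Cpt1a -0.11, Sod2 -0.10, Cox6a1 -0.21, Got2 -0.16, Idh3a -0.23, Osgin1 -0.046, Fgfr4 -0.29, Abcc2 -0.23, Cldn12 -0.090 and Dnajc13 -0.093. Nrip1 was also negative with total counts (-0.055), and Pax8 ranged from -0.16 to 0.026 without single libraries. The cause was not tested for these 2.

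Deviations of vehicle and AZD1152 mice with the same number had correlations of -0.288, 0.209 and -0.119. A pair of unlike numbers, vehicle mouse 1 and AZD1152 mouse 3, reached 0.299. With so few mice, these correlations cannot decide whether the numbers pair the mice. A replicate block over mice 1 to 3 of each group, without AZD1152 mouse 4, called 64 genes higher and 148 lower and none of the 8 regulators higher; the Hnf4a log2 fold change was 0.43 with an edgeR adjusted p of 0.106. It uses 6 libraries and fewer degrees of freedom. At these depths 3 counts are 0.166 to 0.212 CPM, which limits genes such as Fgf15 and Cyp7a1 and none of the 8 regulators.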
